A study of Mus musculus with 6 samples.

Results

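The genes described here are 10 mouse stress and growth arrest genes: the sestrins Sesn1, Sesn2 and Sesn3, the growth arrest and DNA damage genes Gadd45a, Gadd45b and Gadd45g, the antiproliferative genes Btg1 and Btg2, and the polo-like kinase genes Plk2 and Plk3. They were chosen by name, and were read from all probe sets that the platform annotation gives to 1 of these symbols and to no other gene. This gave 21 of the 45037 probe sets tested, for 10 of 18193 annotated genes. A probe set is the group of short array probes that reports on 1 transcript, and its level is given here as a log2 value, so a difference of 1 is a doubling.

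Senescent hepatic stellate cells (3 arrays) were compared with proliferating ones (3 arrays), all murine cells of the C57Bl/6 background grown in medium with 10% serum. Every sample, in both groups, carries 2 transgenes, CMV-rtTA and TRE-GFP-shRNA.p53.1224. In this system a doxycycline-dependent activator under the CMV promoter drives a green fluorescent marker and a hairpin against p53. The senescent cells are labelled as control for treatment and as expressing p53. The proliferating cells received doxycycline at 1 ug/ml and are labelled as having p53 knocked down, so the drug, the hairpin and the growth state cannot be told apart. The hairpin's target is not analysed here. Hepatic stellate cells are the liver's pericytes, which turn into contractile, matrix-producing cells when cultured.

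As background, these families lie at the brakes that stressed cells put on growth. Sestrins bind the GATOR2 complex and restrain the growth kinase complex mTORC1, and Sesn2 also senses leucine. GADD45 proteins are small partners of the kinase Map3k4, of the replication clamp Pcna and of Cdk1. BTG proteins recruit the CCR4-NOT complex, which shortens the poly-A tails of messenger RNAs. Plk2 and Plk3 are relatives of the mitotic kinase Plk1 that are induced by growth factors and by stress. Sesn1, Sesn2, Gadd45a, Btg2, Plk2 and Plk3 are known targets of p53, and Sesn3 and Gadd45a of FOXO factors.

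The arrays were alike in scale, with medians of 6.15 to 6.19. Senescent and proliferating arrays parted on principal component 1 (59.4% of the variance). Component 2 (15.9%) set proliferating replicate 1 apart, at 28.6 against -22.1 to 11.7 for the rest, so results that rest on that array are given with and without it. The poly-A spike-ins, bacterial transcripts that serve as an outside standard, read 0.54 (log2) higher on the senescent arrays, with an exact two-sided permutation p of 0.1, the smallest that 3 arrays against 3 can give. Scaled to them, the median change of all probe sets was -0.54, so every change below is relative to the bulk of the probe sets. Cdkn1a, which encodes the p53-induced inhibitor p21, rose by a log2 change of 1.74 (limma, adjusted p = 4.83e-05). Of 18 stellate cell markers, 12 lay above the background level of 5.57, taken as the 95th percentile among 44 probe sets of olfactory receptors, genes not used in the liver. Acta2, Col1a2 and Vim lay above it, while Lrat, the enzyme that stores vitamin A, and Gfap lay below background. Of the 18, 6 fell (Pdgfrb by 1.30, Col3a1 by 0.93, Hand2 by 0.85, Dcn by 0.75, Col1a1 by 0.56 and Col1a2 by 0.49 on the log2 scale) and Timp1 rose by 0.76. That is 38.9% called, against 15.8% of all genes and 21.9% of those above background. The part of these stellate cell markers in the results was not tested. Markers of hepatocytes, macrophages, endothelial cells, biliary cells and lymphocytes lay above background in 4 of 9, 5 of 10, 2 of 10, 4 of 5 and 3 of 7 genes. Summed over each of these lists, the levels were 48.4 to 50.3, 57.5 to 58.0, 54.5 to 55.0, 35.6 to 35.9 and 36.9 to 38.1 on the senescent arrays. On the proliferating arrays they were 47.5 to 49.7, 56.5 to 57.0, 53.5 to 54.6, 36.5 to 36.9 and 36.4 to 37.5. Calls among them were Apob, Csf1r, Cdh5 and Krt19 higher and Krt7 lower, and 0 lymphocyte markers (limma, 1 at an unadjusted p under 0.05). In the order given, 11.1%, 10%, 10%, 40% and 0% of these lists were called, beside 15.8% of all genes. The mean of Cdh5 over the 6 arrays (5.38) lay below background. The part of these markers in the results was not tested. In RNA from a cell pellet, fewer cells with a transcript and less of it per cell cannot be told apart.

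Against the bulk of the probe sets, the sestrins split, both polo-like kinase genes rose, and neither the GADD45 genes nor the brightest BTG probe sets passed the test. Of the 21 member probe sets, 4 rose and 5 fell at an adjusted p of 0.05 (limma, Benjamini-Hochberg over all 45037), against 12.4% of all probe sets called, 5.99% as higher and 6.39% as lower. Read from the brightest probe set, 3 of the 10 genes rose, namely Plk2, Sesn2 and Plk3, and 2 fell, namely Sesn1 and Sesn3. Over all 18193 genes read this way, 15.8% were called, 7.6% as higher and 8.22% as lower, and 21.9% of genes above background. The median change was 0.34 over the 10 genes and -0.0018 over all genes. Scaled to the spike-ins instead, Sesn2 (-0.033) and Plk3 (-0.17) turned to the other side of zero and Plk2 stood at 0.13, none of them called. Sesn1 and Sesn3 stayed lower, in a setting that called 34510 of the 45037 probe sets lower.

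**Figure D1:**
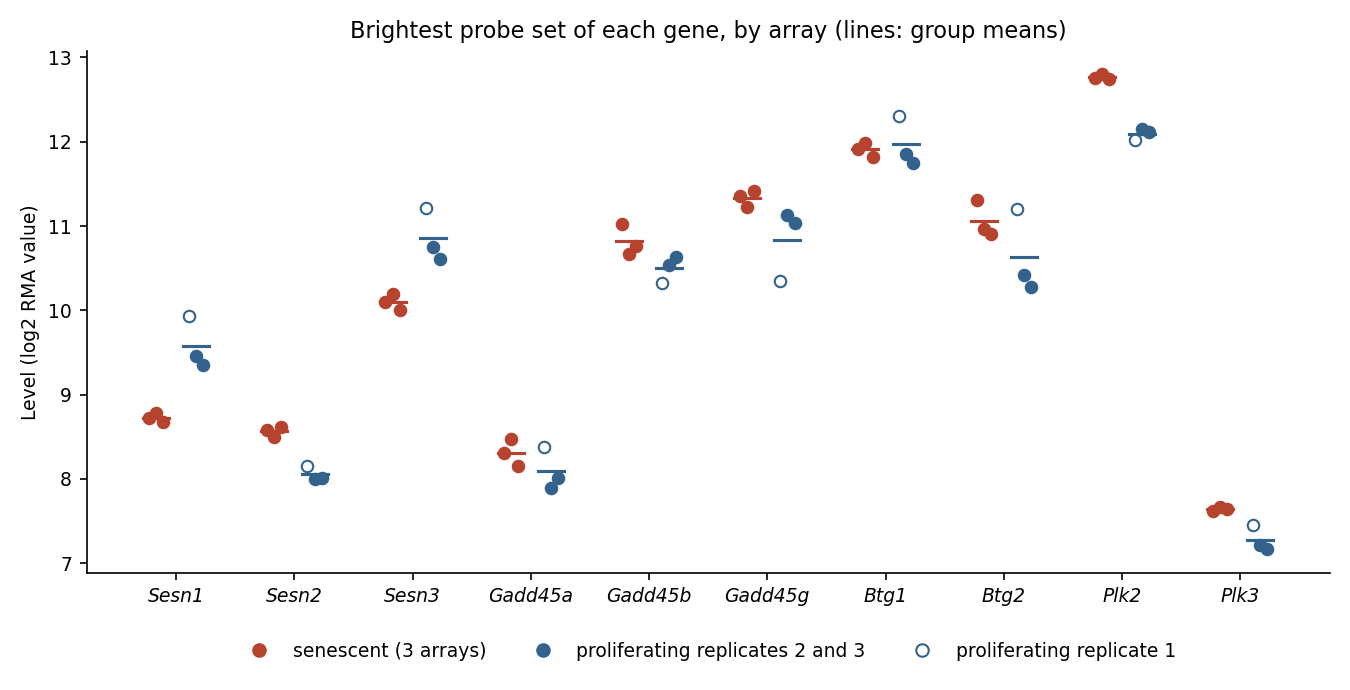
Level (log2 RMA value) of the brightest probe set of each gene on each array, senescent left and proliferating right, with lines at group means. Levels of different genes come from different probes and are not comparable. The groups do not overlap for Sesn1, Sesn2, Sesn3, Gadd45b, Gadd45g, Plk2 and Plk3, and proliferating replicate 1 (open circle) stands apart most clearly for Btg2 and Gadd45g.

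Values of the 2 groups were fully separate in 12 of the 21 probe sets, 7 of them higher and 5 lower, while over all probe sets 31% did not overlap (14.9% higher and 16% lower). Of the 21, 19 had a mean above background. The other 2, a dim probe set each of Sesn1 and Plk2, lay below it on every array and carry no fold. Only 3 of the genes, Gadd45a, Gadd45g and Plk3, have a single probe set, and the rest allow the probe sets of a gene to be compared.

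**Figure D2:**
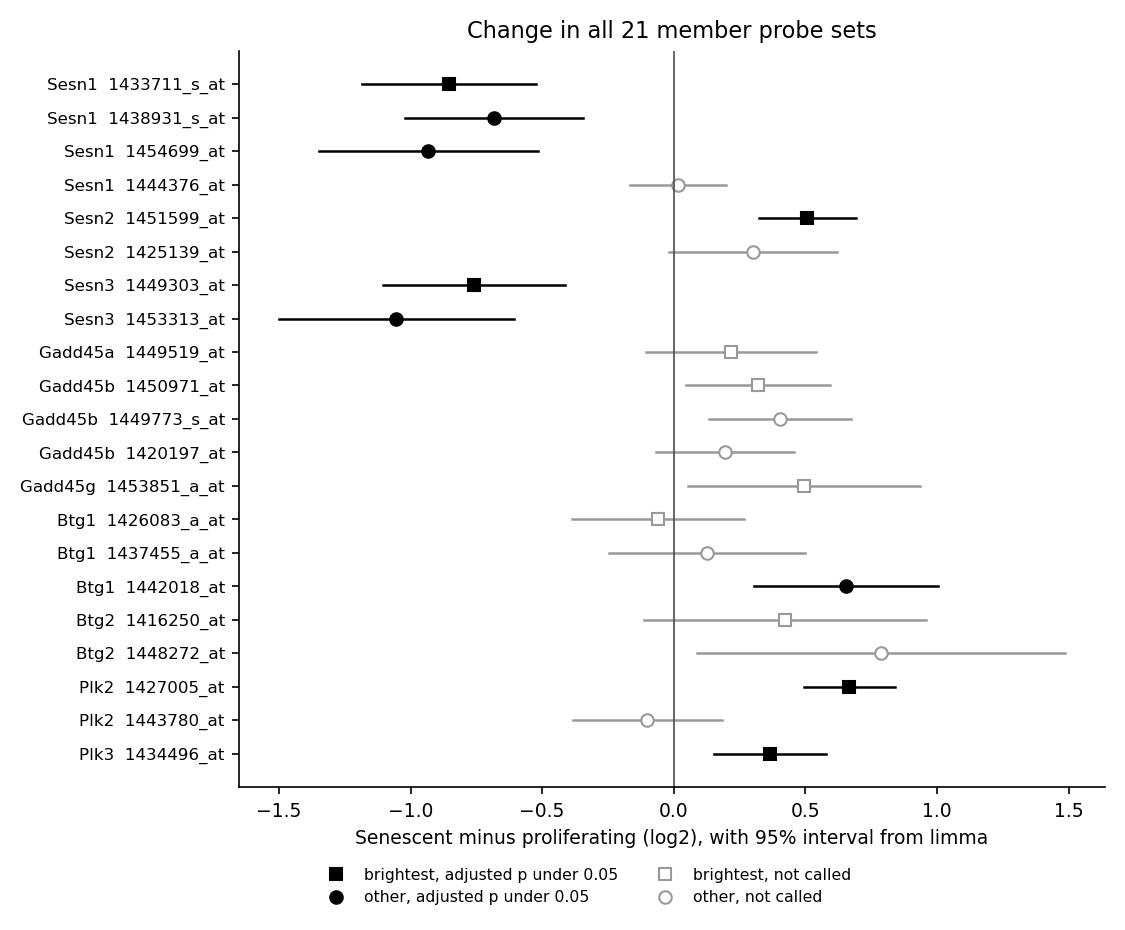
Change (log2, senescent minus proliferating) in each of the 21 member probe sets with its 95% interval from limma, squares for the brightest probe set of a gene and filled symbols for an adjusted p under 0.05. The 5 probe sets that fell all belong to Sesn1 and Sesn3, and the 4 that rose belong to Sesn2, Btg1, Plk2 and Plk3.

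Sesn1 (Entrez gene 140742), a stress-induced sestrin, had levels of 8.72, 8.78 and 8.68 in senescent cells, against 9.93, 9.46 and 9.35 in proliferating cells. All senescent arrays lay below all proliferating ones by at least 0.57, and the highest value was that of proliferating replicate 1. The gene was 1.81-fold lower in senescent cells (log2 change -0.85 ± 0.14, SE, n = 3 per group, adjusted p = 0.00756). It kept its call when any 1 array was left out, with changes of -0.97 to -0.68. The smallest of these was the change without proliferating replicate 1 (-0.68, adjusted p = 0.00347). Of its other probe sets, 1438931_s_at fell by 0.68 and 1454699_at by 0.93 on the log2 scale (adjusted p = 0.0204 and 0.0135), and the one below background had 0.015. Without senescent replicate 3 both missed the threshold (adjusted p = 0.066 and 0.0518), and without senescent replicate 1 the first did (adjusted p = 0.0739). The brightest probe set is of a type (suffix _s_at) that can bind several transcripts, but 1454699_at is not.

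Sesn3 (Entrez gene 75747), the sestrin induced by FOXO factors, moved the same way. Its levels were 10.09, 10.19 and 10.01 in senescent cells and 11.21, 10.75 and 10.61 in proliferating cells. Again the groups did not overlap and proliferating replicate 1 was the highest. The brightest probe set was 1.69-fold lower (-0.76 ± 0.15, adjusted p = 0.0145) and the other, 1453313_at, 2.08-fold lower (-1.05 ± 0.19, adjusted p = 0.0108). On 1453313_at the senescent arrays read 8.79, 8.65 and 8.48 and the proliferating arrays 10.18, 9.43 and 9.48. The brightest probe set lost its call without senescent replicate 1 (-0.76, adjusted p = 0.0501) or senescent replicate 3 (-0.72, adjusted p = 0.0591), while 1453313_at kept it without any 1 array. Without proliferating replicate 1 the brightest probe set gave -0.58 (adjusted p = 0.00929).

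Sesn2 (Entrez gene 230784), the sestrin that senses leucine, went the other way. It had levels of 8.582, 8.499 and 8.610 in senescent cells, against 8.155, 7.997 and 8.015 in proliferating cells. All senescent values lay above all proliferating ones, by at least 0.34. This is a 1.42-fold rise (0.51 ± 0.08, adjusted p = 0.00588), which kept its call without any 1 array (0.48 to 0.56). The dimmer probe set, 1425139_at, was higher by 0.30 ± 0.14 and did not pass (adjusted p = 0.226), and its groups overlapped. Without senescent replicate 1 it was 0.16 (adjusted p = 0.494).

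The promoters of the sestrins are shown because these were the members of 1 family that moved in both directions. Each sequence is the 250 bases before an annotated start, from RefSeq on build GRCm38.p6, written 5′ to 3′ on the gene's strand. Capitals mark matches on either strand to CCAAT (also written as ATTGG) and, as the only run of 10 capitals, a p53 half-site.
Sesn1, first start, chr10:41810324-41810573, + strand: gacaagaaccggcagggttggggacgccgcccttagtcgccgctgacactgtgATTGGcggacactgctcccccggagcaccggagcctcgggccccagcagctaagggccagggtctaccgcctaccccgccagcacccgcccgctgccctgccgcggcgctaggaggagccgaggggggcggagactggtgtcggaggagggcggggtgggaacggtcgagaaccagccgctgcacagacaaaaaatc
Sesn1, second start, chr10:41887189-41887438, + strand: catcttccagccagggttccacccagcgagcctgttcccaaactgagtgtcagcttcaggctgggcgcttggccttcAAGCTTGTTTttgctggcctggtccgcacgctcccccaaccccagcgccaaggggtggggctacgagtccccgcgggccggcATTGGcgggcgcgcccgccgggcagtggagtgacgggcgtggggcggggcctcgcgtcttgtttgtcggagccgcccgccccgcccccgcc
Sesn3, chr9:14276051-14276300, + strand: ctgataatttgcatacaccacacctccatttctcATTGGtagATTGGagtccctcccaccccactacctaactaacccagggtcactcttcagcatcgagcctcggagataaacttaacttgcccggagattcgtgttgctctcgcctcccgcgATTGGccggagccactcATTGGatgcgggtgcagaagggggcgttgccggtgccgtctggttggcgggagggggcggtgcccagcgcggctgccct
Sesn2, chr4:132510457-132510706, - strand: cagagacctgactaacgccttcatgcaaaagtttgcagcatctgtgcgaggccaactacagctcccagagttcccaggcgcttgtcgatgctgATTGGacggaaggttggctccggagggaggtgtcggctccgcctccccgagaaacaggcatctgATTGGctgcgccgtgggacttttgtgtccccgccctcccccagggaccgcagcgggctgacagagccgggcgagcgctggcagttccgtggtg

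The letters CCAAT occurred 4 times in the Sesn3 window, 2 times in that of Sesn2 and once in each Sesn1 window, and 33.8% of 32851 promoter windows of this length held them at least once. Of the sestrin windows, the second start of Sesn1 alone held a p53 half-site, 173 to 164 bases before the start, and 7.13% of all windows hold one. GGGCGG lay in every sestrin window and in 32.7% of all windows. None of the 4 windows held TGACGTCA (1.55% of all windows), TGANTCA (6.75%), CACGTG (6.02%), TAAACA (12%), TGATGNAA (3.45%), TATAAA (12.4%) or an SRF CArG box (1.47%). These are matches of letters only, searched on both strands, and some GGGCGG matches overlap one another.

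Plk2 (Entrez gene 20620), a polo-like kinase of centriole duplication and stress responses, had the largest rise among the brightest probe sets of the 10 genes with all 6 arrays. Without proliferating replicate 1, Btg2 (0.71) exceeded it (0.63). It had levels of 12.75, 12.80 and 12.74 in senescent cells, against 12.02, 12.15 and 12.12 in proliferating cells. The senescent arrays lay within 0.059 of each other, and the groups were at least 0.59 apart. The rise was 1.59-fold (0.67 ± 0.08, adjusted p = 0.00135) and kept its call without any 1 array (0.63 to 0.69). Proliferating replicate 1 did not stand out here and was the lowest of its group. Averaged with its dim second probe set, which lies below background on every array, Plk2 gave 0.28 (adjusted p = 0.0435).

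Plk3 (Entrez gene 12795), a stress-responsive polo-like kinase, read 7.62, 7.67 and 7.64 in senescent cells and 7.45, 7.22 and 7.17 in proliferating cells. The groups did not overlap, and the senescent arrays lay within 0.042 of each other. The rise was 1.29-fold (0.37 ± 0.09, adjusted p = 0.0378). The call was narrow. It ended without senescent replicate 1, 2 or 3 (0.38, 0.36 and 0.37, with adjusted p of 0.0939, 0.106 and 0.0942) and without proliferating replicate 2 or 3 (0.34 and 0.31, with adjusted p of 0.116 and 0.135). It held without proliferating replicate 1 (0.45, adjusted p = 0.0123).

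Btg2 (Entrez gene 12227), an antiproliferative gene induced by p53 and by growth factors, had levels of 11.30, 10.96 and 10.90 in senescent cells, against 11.21, 10.42 and 10.27 in proliferating cells. Proliferating replicate 1 lay within the senescent range, and the other proliferating arrays lay below it. With all arrays the difference was 0.42 ± 0.23 and did not pass (adjusted p = 0.316). The second probe set, 1448272_at, showed the same layout, with 10.32, 10.06 and 10.13 in senescent cells and 10.20, 9.10 and 8.85 in proliferating cells (0.79 ± 0.30, adjusted p = 0.147). Without proliferating replicate 1 both probe sets were called, at 0.71 (adjusted p = 0.0168) and 1.195 (adjusted p = 0.00123). On this array both Btg2 values exceeded the mean of the other proliferating arrays, by 0.86 and 1.22.

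Btg1 (Entrez gene 12226), the closest relative of Btg2, differed between its probe sets. The brightest read 11.92, 11.99 and 11.82 in senescent cells and 12.30, 11.85 and 11.75 in proliferating cells, a change of -0.06 ± 0.14 (adjusted p = 0.852) with overlapping groups. The next, 1437455_a_at, gave 0.13 ± 0.16 (adjusted p = 0.704). The dimmest, 1442018_at, read 8.24, 8.23 and 8.19 in senescent cells and 7.93, 7.49 and 7.27 in proliferating cells. It rose 1.57-fold (0.65 ± 0.15, adjusted p = 0.0278) with no overlap. This call ended when any 1 array other than proliferating replicate 1 was left out (changes of 0.51 to 0.67, adjusted p of 0.0703 to 0.0905), and without that array it was 0.84 (adjusted p = 0.00225). What 1442018_at binds within the gene is not given in the sources used here.

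The promoters of Plk2 and Btg2 are shown with that of Plk3 because they are the only windows of the 10 genes that hold TGACGTCA, the cyclic AMP response element. Capitals mark TGACGTCA and CCAAT on either strand, and the windows are the 250 bases before the RefSeq start on GRCm38.p6, 5′ to 3′ on the gene's strand.
Plk2, chr13:110394794-110395043, + strand: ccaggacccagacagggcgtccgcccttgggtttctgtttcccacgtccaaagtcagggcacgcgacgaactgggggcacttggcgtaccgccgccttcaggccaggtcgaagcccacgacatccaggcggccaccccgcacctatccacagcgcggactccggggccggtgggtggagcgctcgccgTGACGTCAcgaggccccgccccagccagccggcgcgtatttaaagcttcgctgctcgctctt
Btg2, chr1:134079156-134079405, - strand: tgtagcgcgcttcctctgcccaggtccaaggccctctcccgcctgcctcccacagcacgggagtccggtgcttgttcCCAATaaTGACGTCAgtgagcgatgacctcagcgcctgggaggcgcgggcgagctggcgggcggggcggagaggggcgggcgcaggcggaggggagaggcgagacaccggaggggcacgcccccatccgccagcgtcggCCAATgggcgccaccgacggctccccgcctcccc
Plk3, chr4:117133964-117134213, - strand: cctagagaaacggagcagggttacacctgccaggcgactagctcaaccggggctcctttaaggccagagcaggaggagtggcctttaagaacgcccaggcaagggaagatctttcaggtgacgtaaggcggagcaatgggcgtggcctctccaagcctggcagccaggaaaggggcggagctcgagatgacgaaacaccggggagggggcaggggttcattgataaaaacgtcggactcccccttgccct

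TGACGTCA lay 62 to 55 bases before the start of Plk2 and 166 to 159 bases before that of Btg2, and 508 of the 32851 windows (1.55%) hold it. The Plk3 window held GGGCGG once and none of the other letters searched. Of these 2 genes Plk2 rose and Btg2 did not pass the test. Of the windows not printed, Gadd45a held a p53 half-site, 40 to 31 bases before its start, and Gadd45b and Gadd45g each held CACGTG and TATAAA.

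No GADD45 gene passed the test. Of their 5 probe sets, 0 were called, against 12.4% of all probe sets, and all 5 had higher means in senescent cells. An unadjusted p under 0.05 (limma) was found for 3 of them. No share over all probe sets is given for that threshold, so the count is not read as a rise. Gadd45g (Entrez gene 23882), the member named for its response to cytokines, read 11.36, 11.22 and 11.42 in senescent cells and 10.35, 11.13 and 11.04 in proliferating cells. The groups did not overlap, but the gap was 0.091 and proliferating replicate 1 was far below the others. The difference was 0.49 ± 0.19 (adjusted p = 0.15), and 0.25 without that array (adjusted p = 0.159).

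Gadd45b (Entrez gene 17873), which responds to NF-kB and transforming growth factor signals, read 11.02, 10.67 and 10.76 in senescent cells and 10.33, 10.53 and 10.63 in proliferating cells. The groups were only 0.038 apart. The difference was 0.32 ± 0.12 (adjusted p = 0.132), with 0.40 ± 0.12 (adjusted p = 0.0616) and 0.20 ± 0.11 (adjusted p = 0.347) in its other probe sets. Gadd45a (Entrez gene 13197), the p53-responsive member, read 8.31, 8.47 and 8.15 in senescent cells and 8.38, 7.89 and 8.01 in proliferating cells. Its groups overlapped through proliferating replicate 1, and the difference was 0.22 ± 0.14 (adjusted p = 0.405), with a 95% interval of -0.11 to 0.54. Without that array it was 0.36 (adjusted p = 0.0961), and without proliferating replicate 2 it was 0.11 (adjusted p = 0.718), the highest and lowest values with 1 array left out. Such an interval does not show that the gene was unchanged.

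**Figure D3:**
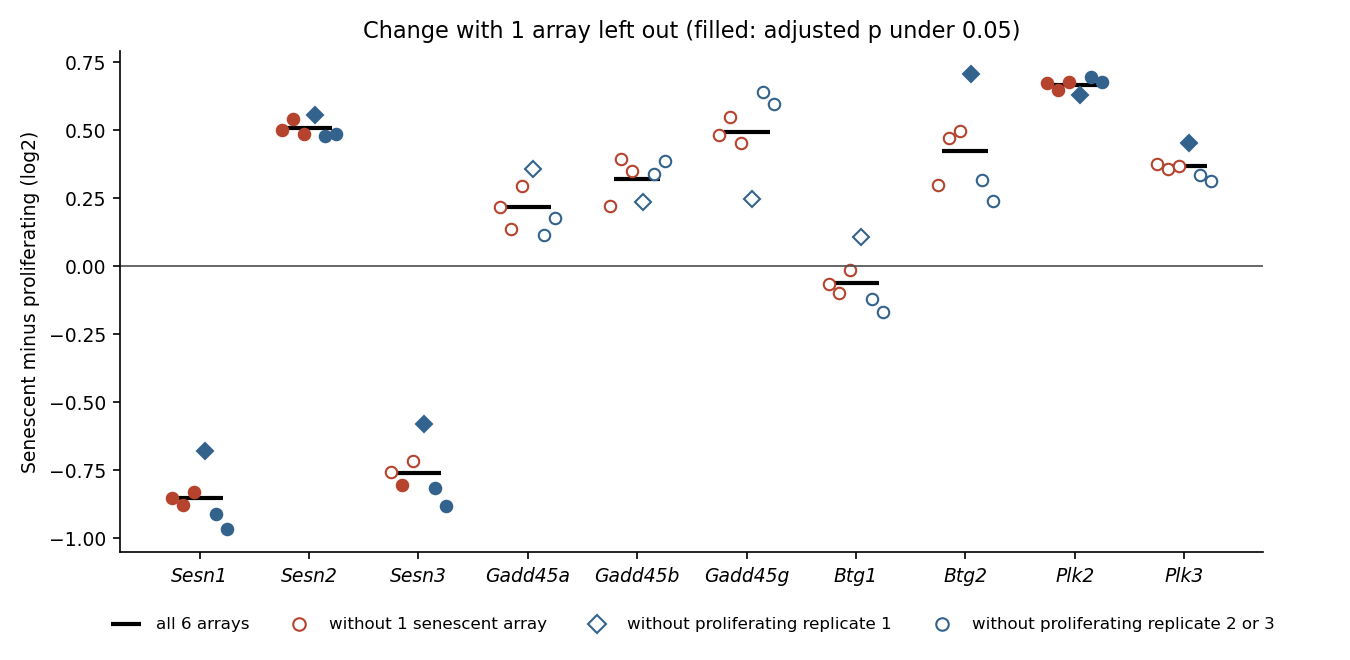
Change (log2, senescent minus proliferating) of each gene's brightest probe set with all 6 arrays (bar) and with each array left out in turn, filled where the adjusted p was under 0.05. Leaving out proliferating replicate 1 (diamonds) moved Btg2 to 0.71 and Gadd45g to 0.25, and Plk2 stayed between 0.63 and 0.69 whichever array was left out.

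Proliferating replicate 1 was the highest of its group in 15 of the 21 probe sets and the lowest in the other 6. Across all genes, each read from its brightest probe set, it was the highest in 32.6%. No share over all probe sets, or for the lowest, is given, and the 21 include several probe sets of some genes. The 6 in which it was lowest were all the probe sets of Gadd45b, Gadd45g and Plk2. Immediate-early genes switch on within minutes of a stimulus, and Btg2, Gadd45b, Plk2 and Plk3 are often counted among them. Within the proliferating group Btg2 and Plk3 were highest on this array, while Gadd45b and Plk2 were lowest. Of 27 immediate-early genes other than the members, 25 were highest there within the proliferating group. Their mean level was 10.43, 10.35 and 10.30 on the senescent arrays and 10.56, 9.81 and 9.71 on the proliferating arrays. The part of this difference in the values of the members was not tested.

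Changes were also compared between members of a family, as the log2 difference between their brightest probe sets within each array. A total of 8 pairs was tested with an exact two-sided permutation test, where 3 arrays against 3 cannot give a p below 0.1 and the Benjamini-Hochberg value over the 8 pairs cannot pass. Sesn2 gained 1.36 ± 0.12 over Sesn1 (log2, SE, 95% interval from limma 1.08 to 1.64) and 1.27 ± 0.13 over Sesn3 (0.96 to 1.57). In both pairs every senescent array exceeded every proliferating one (exact p = 0.1, adjusted p = 0.16). Sesn3 and Sesn1 had a difference in change of 0.094 ± 0.071 (-0.069 to 0.26, exact p = 0.1). That difference was -0.29 when all probe sets of a gene were averaged, the Sesn1 probe set below background included.

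Btg2 gained 0.48 ± 0.14 over Btg1 (0.16 to 0.80, exact p = 0.1). In this within-array ratio the senescent arrays read -0.61, -1.03 and -0.92 and the proliferating arrays -1.10, -1.43 and -1.48, which do not overlap. Btg1 and Btg2 were both high on proliferating replicate 1. The contrast rests on the brightest Btg1 probe set (-0.06). Btg1 1442018_at rose by 0.65, more than the 0.42 of the brightest Btg2 probe set. Plk2 gained 0.30 ± 0.11 over Plk3 (0.044 to 0.56, exact p = 0.1), but 0.18 without proliferating replicate 1 and -0.084 when the dim Plk2 probe set was averaged in. The 3 GADD45 pairs differed by -0.28 to -0.11, with exact p of 0.6 to 0.7 and overlapping groups. Without proliferating replicate 1 the differences of Gadd45a from Gadd45b and from Gadd45g turned to 0.12 and 0.11.

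**Figure D4:**
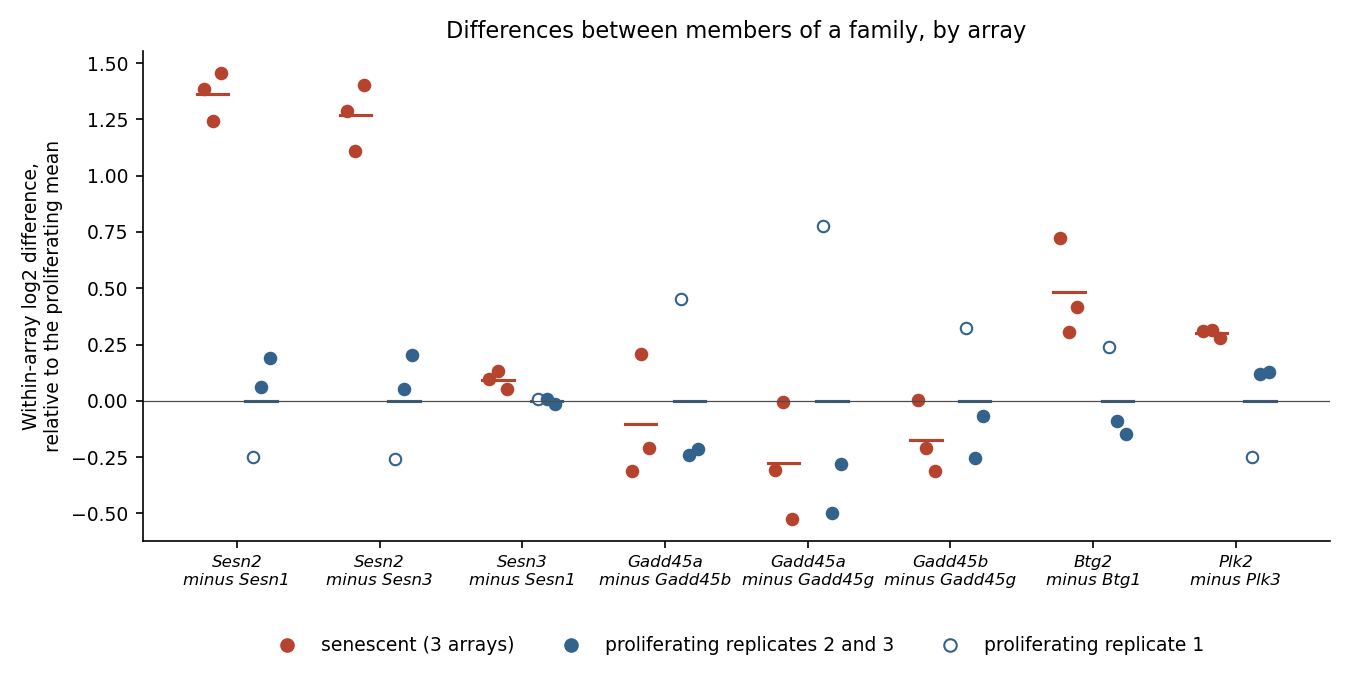
Within-array log2 difference between the brightest probe sets of 2 family members, shown relative to the mean of the proliferating arrays, for senescent (left) and proliferating arrays (right) with lines at group means. Every senescent array lies above every proliferating one for Sesn2 over Sesn1 (a mean gain of 1.36) and over Sesn3 (1.27), and the groups overlap for the 3 GADD45 pairs.

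The other known p53 targets were compared, since most of the 10 genes are p53 targets. Of 39 measured, 25 rose and 4 fell, with a median change of 0.45. That is 74.4%, against 15.8% of all genes and 21.9% of those above background. Perp, a desmosomal membrane protein of cell death, rose 6.54-fold, Cdkn1a 3.34-fold and Pmaip1, which encodes the pro-apoptotic NOXA, 2.65-fold. Ccng2, cyclin G2, fell by 0.97 and Cd82, a tetraspanin, by 0.78 on the log2 scale. Beside these, Sesn1 fell by 0.85, and Sesn2, Plk2 and Plk3 rose by 0.51, 0.67 and 0.37. The p53 targets Gadd45a (0.22, adjusted p = 0.405) and Btg2 (0.42, adjusted p = 0.316) did not pass. Scaled to the spike-ins, 6 of the 39 were called higher and 8 lower. Of all 45037 probe sets, that scaling called 399 higher and 34510 lower.

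Sestrins act through a larger pathway. The list compared took in genes of GATOR, AMPK and mTORC1, and also Keap1, Nfe2l2, Sqstm1 and Srxn1. Of 37 measured, 5 rose and 2 fell, with a median of -0.014. That is 18.9%, against 15.8% of all genes and 21.9% of those above background. Srxn1, which reactivates peroxiredoxins, rose by 0.71, Ddit4, an inhibitor of mTORC1, by 0.48 and Prkaa2, an AMPK subunit whose mean lay below background, by 0.43. Tsc1 of the complex that restrains mTORC1 fell by 0.38 and Mios of GATOR2 by 0.29. With any 1 array left out between 2 and 4 of the 37 were called. The falls were lost in these fits, with 0 lower calls in all but the one without senescent replicate 2, which had 1. With all arrays, 7 of the 37 were higher and 5 lower at an unadjusted p under 0.05 (limma). No share over all genes is given for that threshold.

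GADD45 proteins act through kinases of the p38 and JNK pathways. Of 15 partners measured, 5 fell and 2 rose (46.7%, against 21.9% of genes above background), with a median of -0.0044. Map2k6, a kinase of the p38 pathway, was 1.93-fold lower, Mapk12, a p38 kinase, 1.67-fold lower and Map3k4, which GADD45 proteins activate, 1.49-fold lower. Mapk13 and Mapk9 rose by 0.39 and 0.30. Without proliferating replicate 2 or 3, 3 of the 15 were called, and without senescent replicate 1, 2 or 3, 4 were called. None of the rises was called without proliferating replicate 2 or 3 or without senescent replicate 1 or 2, and 1 was called without proliferating replicate 1 or senescent replicate 3.

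Of 19 BTG relatives and genes of the CCR4-NOT and PAN deadenylases, 4 fell and 1 rose, with a median of -0.079. That is 26.3%, against 21.9% of genes above background. Cnot6, Cnot6l and Pan2, deadenylase subunits, fell by 0.61, 0.43 and 0.43, and Hoxb9, a transcription factor that binds BTG proteins, rose 1.56-fold. Without proliferating replicate 3 or senescent replicate 3, 3 of the 19 were called. Among the other polo-like kinases, 2 of 3 fell and 0 rose, also at an unadjusted p under 0.05. Plk4, of centriole duplication, fell by 0.71 and Plk1, of mitosis, by 0.63, opposite to Plk2 and Plk3. Plk5 had a change of 0.036. Of the 3, 1 was called without proliferating replicate 2 or 3 or without senescent replicate 2 or 3.

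Genes of the integrated stress response, a programme that raises Sesn2 when amino acids are short, went both ways. Of 25, 5 rose and 2 fell (28%, against 21.9% of genes above background), with a median of -0.025. Ppp1r15a, which ends that response and is also called Gadd34, rose 2.34-fold, Chac1, a glutathione-degrading enzyme, 1.64-fold and Vldlr, a lipoprotein receptor, 1.53-fold. Cebpb and Psat1 fell by 0.44 and 0.36. With 1 array left out, 1 to 3 were called, except for 11 without proliferating replicate 1 (5 higher and 6 lower).

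Among 24 FOXO factors and targets, 3 rose and 5 fell (33.3%, against 21.9% of genes above background), with a median of -0.10. Bcl6, a transcriptional repressor, was 2.36-fold lower, and Ccng2 and Cdkn1b, which encodes the inhibitor p27, fell by 0.97 and 0.71. Cited2 rose 1.87-fold and Pdk4, a brake on glucose oxidation, 1.81-fold. Of the members named above as FOXO targets, Sesn3 fell by 0.76 and Gadd45a did not pass (0.22, adjusted p = 0.405). A link of the members to these genes was not tested.

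Of the 27 immediate-early genes, 8 rose and 1 fell (33.3%, against 21.9% of genes above background), with a median of 0.34. Fosl1, a subunit of the AP-1 factor, rose 2.77-fold, Nr4a2, a nuclear receptor, 2.61-fold and Maff, a small MAF factor, 1.79-fold. Egr2, a zinc finger factor, was 3.28-fold lower. Without proliferating replicate 1, 17 were called, 16 of them higher, and without proliferating replicate 2 or without senescent replicate 1 or 2, 4 were called, and 5 without senescent replicate 3.

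**Figure D5:**
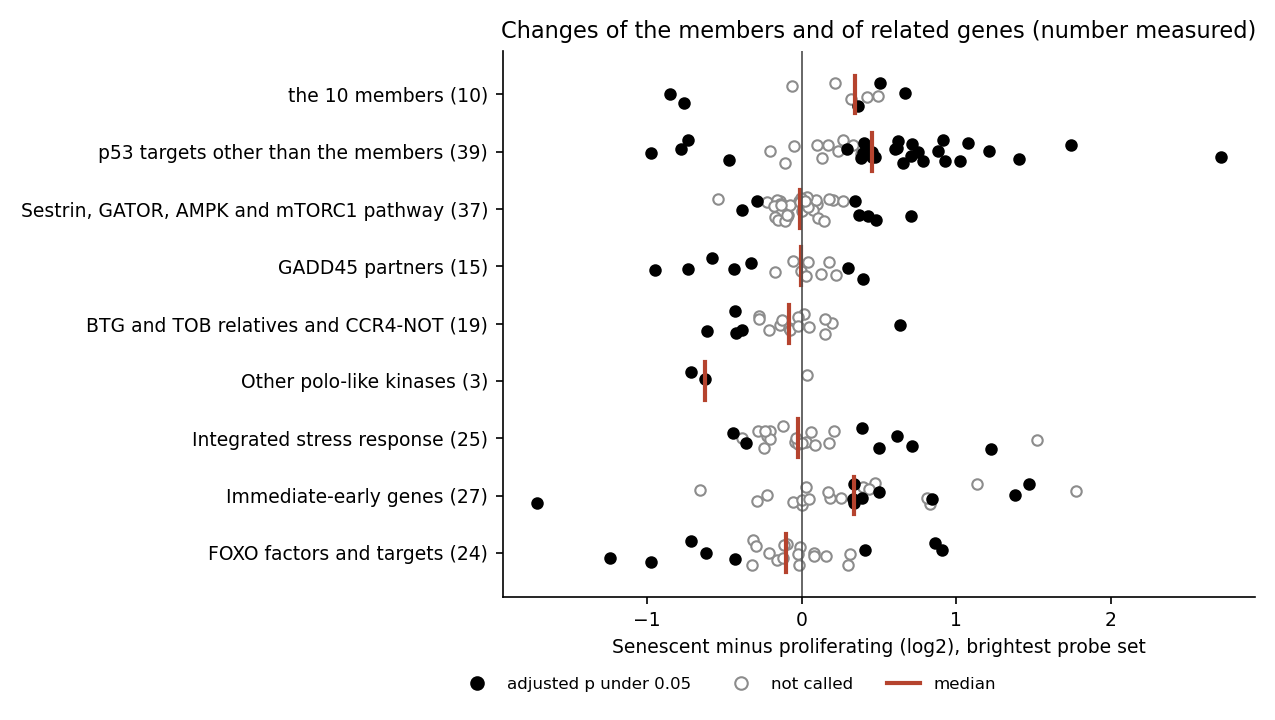
Change (log2, senescent minus proliferating) of the 10 members and of each group of related genes, read from the brightest probe set, with the number measured in parentheses, filled circles for an adjusted p under 0.05 and red lines at medians. The median is 0.34 for the members, 0.45 for other p53 targets and -0.014 for the sestrin pathway.

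As a description of likeness, the genes whose levels ran most like those of Plk2 over the 6 arrays were Rab3ip, Hmga2 and Slc25a24, with Pearson correlations of 0.999, 0.998 and 0.998. Those most like Sesn1 were Socs3, Tgfbr3 and Sh3pxd2b, each at 0.998. The 6 points fall into the 2 groups, and 106 of 12499 genes exceeded 0.99 with Plk2 and 56 with Sesn1. Socs3 fell by 1.19 and Tgfbr3 by 1.10, with an SD among the proliferating arrays of 0.45 and 0.43, beside 0.31 for Sesn1.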

How the data were processed

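Total RNA of senescent and proliferating hepatic stellate cells was hybridised to Affymetrix mouse arrays (3 per group), with biotin labelling of 6 ug of RNA, per the labels' protocols. The authors deposited log2 values per probe set that, per the submitters' processing notes, come from RMA, the robust multi-array average. This method corrects background, equalises the distributions of the arrays and summarises probes, so shifts shared by most genes are removed and changes of dim probe sets are compressed. For its version, the chip description, batches and the probes' genome build, the sources used here hold no entry.

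Groups came from sample titles. Of 45101 probe sets, 64 controls were left out, and 34958 had 1 gene symbol in the platform annotation, 932 several and 9160 none. Symbols were updated through the Entrez number with a RefSeq table of GRCm38.p6, which also gave the promoters of all 10 genes. All non-control probe sets were fitted with lmFit and eBayes of limma 3.58.1 (R 4.3.3), senescent minus proliferating, with no covariates and Benjamini-Hochberg adjustment over all of them at 0.05. The fit was tested on simulated data. The median SE was 0.098, and the number of arrays limits the precision. Separate cultures or animals behind the arrays are not stated, so p-values measure array-to-array spread that may be technical. The probe set with the highest mean stood for its gene. The members and lists were chosen with earlier results of these data known.

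All members are named. Of each list, up to 3 called genes in the direction of most calls and up to 2 in the other are named by size of change. For the members with the largest rise and the largest fall, the 3 best correlated genes are named. Any other gene named was picked with its values known. The alternatives tried were the replicate block, each array left out, the variance model, array weights, filters, centring, spike-in scaling and the choice of probe set. Plots used matplotlib 3.10.9 (Python 3.11.15).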

Additional observations from a re-analysis of the deposited data

How the results depend on the processing

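Sesn1 and the sestrin contrasts with Sesn2 kept their direction in every setting run, and Sesn1 kept its call in all. In one of these settings, spike-in scaling, 34510 of 45037 probe sets were called lower, so a lower call there is not particular to Sesn1. The main counts were 5579 probe sets, 9 member probe sets and 5 member genes called. With 1 array left out these were 3258 to 5298, 4 to 11 and 3 to 6, with fewer samples fitted. The ranges of change were -0.88 to -0.58 for Sesn3, 0.31 to 0.45 for Plk3, 0.24 to 0.71 for Btg2 and -0.17 to 0.11 for Btg1. For the pairs, Gadd45a minus Gadd45b ranged from -0.26 to 0.12 and Gadd45a minus Gadd45g from -0.53 to 0.11. For the dim Sesn1 probe set 1444376_at the range was -0.019 to 0.067.

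Scaling to the poly-A spike-ins called 34909 of 45037 probe sets, 1.14% of them higher, against 48.4% of the main calls. Of the 10 member genes, 3 were called, all as lower. The changes were -0.033 for Sesn2, -0.32 for Gadd45a, -0.22 for Gadd45b, -0.047 for Gadd45g, -0.12 for Btg2, -0.17 for Plk3, 0.13 for Plk2 and -0.60 for Btg1 (adjusted p = 0.0068). Other probe sets turned to -0.53 (Sesn1 1444376_at), -0.24 (Sesn2 1425139_at), -0.14 and -0.34 (Gadd45b 1449773_s_at and 1420197_at) and -0.41 (Btg1 1437455_a_at). These follow from a shift common to all genes.

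The brightest Btg1 probe set turned to 0.041 with array weights. Btg1 stood at 0.24 with its probe sets averaged and at 0.65 with its most variable one. With probe sets averaged, Sesn3 minus Sesn1 was -0.29 and Plk2 minus Plk3 was -0.084. These averages take in Sesn1 1444376_at (0.015) and Plk2 1443780_at (-0.10), which lay below background on every array. The cause of the Btg1 turn with array weights was not tested. The 90th percentile put the background level at 5.41.

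Over all probe sets, same-numbered arrays of the 2 groups deviated from their group means with correlations of 0.11, -0.11 and -0.16. Whether same-numbered arrays share more than a number in smaller sets of genes was not tested. With the replicate number as a block, 4229 probe sets were called and Plk3 missed the threshold at 0.37 (adjusted p = 0.0739). The block left 0 lower calls in the sestrin pathway list and 0 higher calls among the GADD45 partners. Under it the brightest Btg2 probe set and 1448272_at came nearer the threshold without passing it (adjusted p = 0.0905 and 0.0665).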

Other observations

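The immediate-early genes Nr4a1 and Dusp1 and the integrated stress response gene Atf3, chosen here after their values were seen, did not pass the test and had the layout of Btg2. Nr4a1, a nuclear receptor, read 11.34, 10.92 and 11.03 in senescent cells, against 11.10, 8.42 and 8.44 in proliferating cells (1.78, adjusted p = 0.121). Atf3, a stress-induced repressor, read 9.36, 9.05 and 9.06 in senescent cells and 9.20, 6.81 and 6.90 in proliferating cells (1.52, adjusted p = 0.128). Dusp1, a phosphatase of MAP kinases, read 12.84, 12.75 and 12.64 in senescent cells and 12.54, 11.27 and 11.02 in proliferating cells (1.13, adjusted p = 0.0715). In all 3, proliferating replicate 1 lay close to the senescent arrays and the other proliferating arrays lay well below. Fos, an immediate-early gene, was laid out differently, with 11.63, 11.70 and 11.45 in senescent cells and 13.13, 11.43 and 10.89 in proliferating cells, where replicate 1 exceeded every senescent array.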
